A study of Solanum lycopersicum with 9 samples.

Results

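Transcript levels of 10 core circadian clock genes were followed in leaves of tomato (Solanum lycopersicum, cultivar M82, wild type) whose other leaves had been removed or darkened. The 10 genes were chosen by identifier from a list of clock components, and all 10 were found among the 23195 genes of the count table. The list gives names and identifiers separately and pairs none of them. They were paired here by their order, with more than 1 copy of PRR and of GIGANTEA inferred, as LHY (Solyc10g005080.3), LNK2 (Solyc01g068560.3), pseudo-response regulators (PRR, Solyc10g005030.3 and Solyc03g081240.3), GIGANTEA (Solyc04g071990.3 and Solyc12g056650.2), FKF1 (Solyc01g005300.3), TOC1 (Solyc06g069690.3), LUX (Solyc06g005680.3) and ELF3 (Solyc08g065870.3). The deposited table carries identifiers without names, and the reference gene table used here (assembly SLM_r2.1) matched none of them. The pairing of names with identifiers was therefore not checked against an annotation, and every gene name below depends on it. EID1, a further name on the list, was left without an identifier by this inference. Copies with the same name are told apart by chromosome, for example PRR (10g) and PRR (03g).

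Seedlings were raised in a growth chamber with a photoperiod of 12 h and moved at an age of 4 weeks to pots in a greenhouse under natural sunlight. In the defoliated group all leaves were cut off except the one that was measured. In the shaded group aluminum foil covered all leaves except the youngest fully expanded one. Plants were treated at 1 week past first anthesis, and RNA came from the leaf left untouched or, in untreated plants, from a leaf at the same position. There were 3 biological replicates in each of the 3 groups, per the series' design text. The labels of the treated libraries carry the number 48 without a unit, those of the control libraries carry none, and no source used here gives the hour of collection. Treatment, the meaning of that number and the hour of collection therefore cannot be told apart in any comparison with control. Between shaded and defoliated leaves the shared label does not fix the hour, so treatment and hour cannot be told apart there either.

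The plant circadian clock is a network of transcription factors that repress each other in sequence through the day. LHY, a MYB factor, accumulates around dawn and represses evening genes. PRR proteins follow through the day and repress LHY, and GIGANTEA, FKF1 and TOC1 peak late in the day. LUX and ELF3 belong to the evening complex, which acts at night. These phases are best known from Arabidopsis. Because levels of such genes change over hours, a difference between groups in them depends on when the leaves were collected.

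Total counts per library lay between 17617138 and 31012772, and shading replicate 3 was the shallowest. In it 1657 genes had no count, while the other 8 libraries had 334 to 711 such genes. All 10 clock genes passed the filter on low counts, as did 20480 genes in all. Levels are given as counts scaled to library size (CPM), which are not scaled to transcript length, so that levels of different genes are not compared. Of 6 identifiers listed as Rubisco small subunits and chlorophyll a/b binding proteins, which mark leaf mesophyll, 0 were at 0 counts. Their summed level was 35478 to 48237 CPM in control, 46560 to 59145 CPM in defoliated and 76788 to 90676 CPM in shaded leaves. After defoliation the 6 did not move alike. Log2 fold changes were 0.05, 0.67 and 1.24 for the Rubisco subunits and 0.25, -0.24 and 0.08 for the binding proteins. Of these only 0.67 and 1.24 had an adjusted p below 0.05 in the edgeR test used below. Under shading all 6 were higher, by 0.57 to 3.26. The part of these markers in the results below was not tested. In whole leaf samples fewer cells of a type and less RNA per cell cannot be told apart.

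LHY fell after defoliation and under shading, and GIGANTEA (12g) rose in both. LNK2 fell after defoliation and TOC1 fell under shading. After defoliation 3 of the 10 genes thus passed the test, 1 higher and 2 lower (edgeR quasi-likelihood test, Benjamini-Hochberg adjusted p below 0.05 over all genes), where 34.3% of all genes tested passed, 18.9% higher and 15.4% lower. Under shading 3 of 10 passed, again 1 higher and 2 lower, against 30.2% of all genes, 16% higher and 14.2% lower. These shares are near the background. The libraries of a treated group lay wholly on one side of the control libraries for 4 of 10 clock genes after defoliation, beside 51.9% of all genes, and for 4 of 10 under shading, beside 46.3%. The median log2 fold change of the 10 genes was 0.03 after defoliation and 0.05 under shading, beside -0.02 and -0.02 over all genes. Median absolute log2 fold changes were 0.44 and 0.44, beside 0.44 and 0.41. Both comparisons use the same 3 control libraries. The number passing under shading was 1 without any 1 of the 3 control libraries or without shading replicate 3, and 0 without shading replicate 2. After defoliation it was 2 without control replicate 2, control replicate 3 or defoliation replicate 3.

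**Figure D1:**
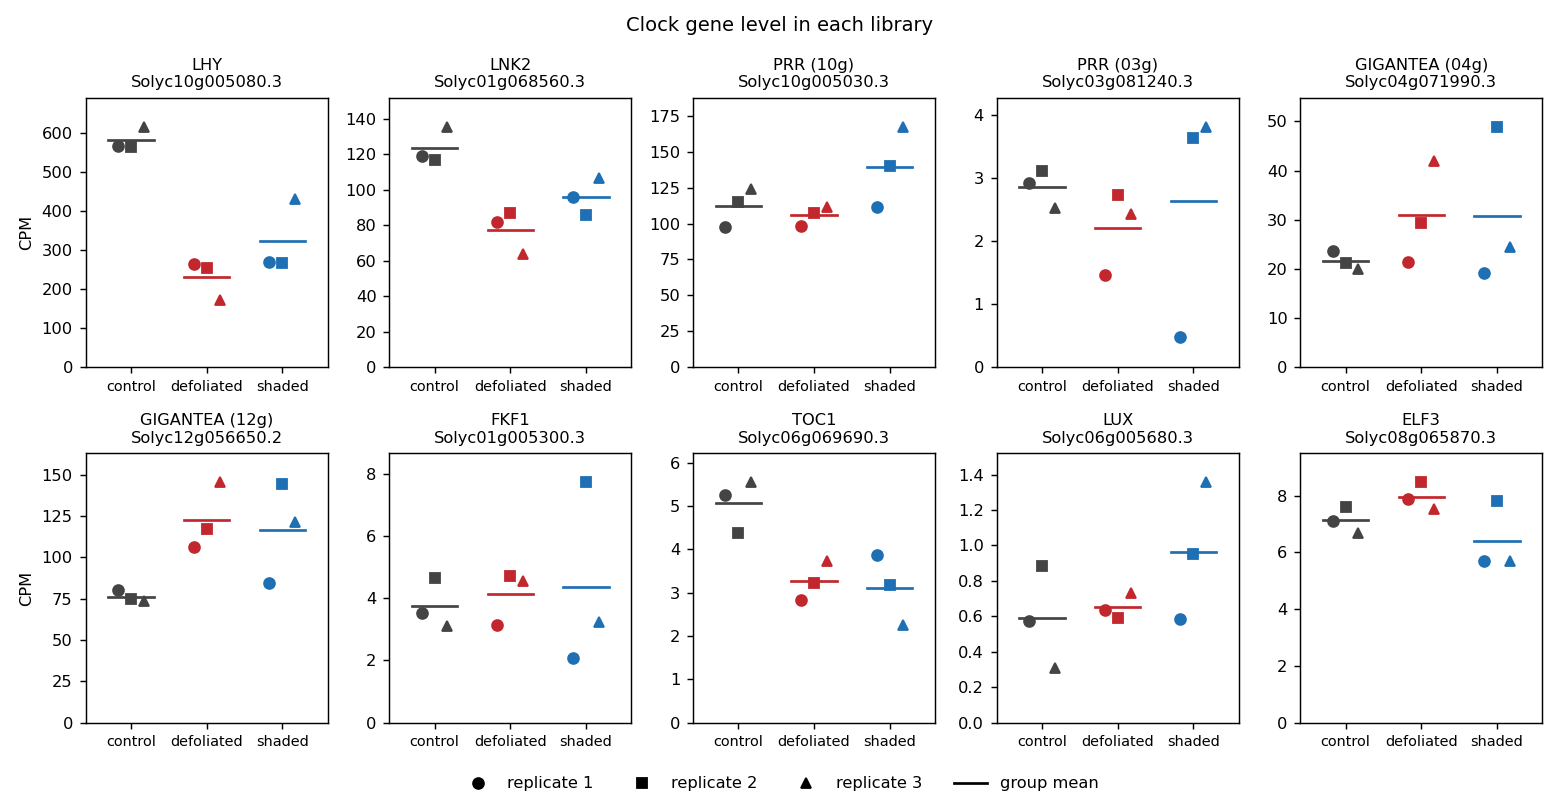
Level of each clock gene (CPM, linear axis from 0) in the 9 libraries, with replicates as symbols and group means as lines. LHY lies between 565 and 616 CPM in control leaves and below 432 CPM in all treated libraries, while GIGANTEA (12g) lies above 84 CPM in all treated libraries and at most at 80.1 CPM in control leaves.

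Among the morning genes, LHY showed the largest log2 fold change of the 10 in both comparisons with control. In control leaves its level was 568, 565 and 616 CPM in replicates 1, 2 and 3. It was 265, 255 and 171 CPM in the defoliated leaves and 269, 267 and 432 CPM in the shaded leaves. Neither treated group overlapped the control group, and the 2 treated groups lay close together apart from defoliation replicate 3 at the low end and shading replicate 3 at the high end. The mean was 2.53-fold lower after defoliation (583 ± 28.9 against 230 ± 51.5 CPM, SD, n = 3), a log2 fold change of -1.34 ± 0.22 (SE, edgeR adjusted p = 0.0016). Under shading it was 1.81-fold lower (323 ± 94.6 CPM), a log2 fold change of -0.85 ± 0.22 (SE, edgeR adjusted p = 0.0155). The fall after defoliation passed under all 19 alternatives, with log2 fold changes between -1.45 and -1.16. The fall under shading did not pass without shading replicate 1 (-0.74, edgeR adjusted p = 0.058) or shading replicate 2 (-0.73, edgeR adjusted p = 0.0612).

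LNK2, a coactivator that works with LHY-related MYB factors in Arabidopsis, stood at 119, 117 and 136 CPM in control leaves. The defoliated leaves held 82.1, 86.7 and 63.8 CPM and the shaded leaves 96, 85.7 and 107 CPM. All 6 treated libraries lay below the 3 control libraries, and defoliation replicate 3 was the lowest, as for LHY. The log2 fold change was -0.68 ± 0.15 after defoliation (SE, edgeR adjusted p = 0.00585), and this call held under all 19 alternatives. Under shading the value was -0.37 ± 0.15 (SE, edgeR adjusted p = 0.082), which did not pass, although it did without defoliation replicate 3 (-0.36, edgeR adjusted p = 0.0475).

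The gene outside the clock lists whose level followed LHY most closely was Solyc03g096900.3, out of 11052 candidates with a mean of at least 10 CPM. Pearson's r of log2 CPM over the 9 libraries was 0.99, a value that the difference between the groups contributes to. Its means were 155 CPM in control, 81.4 CPM in defoliated and 105 CPM in shaded leaves. Defoliation replicate 3 (64.7 CPM) was its lowest library and shading replicate 3 (124 CPM) its highest treated one. The gene was chosen for following LHY over these libraries, so this shared order is no separate observation.

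The PRR genes, repressors that act in turn from morning to evening, gave no call in either comparison with control. PRR (10g) stood at 97.4, 115 and 124 CPM in control, 98.6, 107 and 111 CPM in defoliated and 111, 141 and 168 CPM in shaded leaves. The groups overlapped, and the log2 fold changes were -0.08 ± 0.16 after defoliation (SE, edgeR adjusted p = 0.72) and 0.32 ± 0.16 under shading (SE, edgeR adjusted p = 0.161). PRR (03g) was a low gene with 12 to 103 counts per library. It stood at 2.91, 3.11 and 2.52 CPM in control leaves, at 1.46, 2.73 and 2.42 CPM in defoliated leaves and at 0.47, 3.63 and 3.81 CPM in shaded leaves. Shading replicate 1, with 12 counts, lay far below the other 2 shaded libraries, which were the highest of all 9. The log2 fold change under shading was -0.12 ± 0.58 (SE, edgeR adjusted p = 0.895) and 0.39 without shading replicate 1.

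GIGANTEA, a scaffold protein that stabilizes clock and flowering regulators late in the day, is represented by 2 genes. GIGANTEA (12g) was at 80.1, 75 and 73.4 CPM in control leaves, 106, 117 and 145 CPM in defoliated leaves and 84.8, 144 and 121 CPM in shaded leaves. Both treated groups lay above the control group without overlap, with shading replicate 1 closest to control. The mean rose 1.61-fold after defoliation (0.69 ± 0.19 on the log2 scale, SE, edgeR adjusted p = 0.019) and 1.53-fold under shading (0.62 ± 0.19 SE, edgeR adjusted p = 0.0339). The first call was lost without control replicate 2 (0.68), control replicate 3 (0.66) or defoliation replicate 3 (0.55). The second was lost without control replicate 1 (0.66), 2 (0.64) or 3 (0.59), without shading replicate 2 (0.44) or 3 (0.59), with the replicate number as a block (0.59) and with all libraries thinned to one depth (0.57).

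GIGANTEA (04g) stood at 23.6, 21.2 and 19.9 CPM in control leaves. It stood at 21.4, 29.4 and 41.9 CPM in defoliated leaves and at 19.1, 48.9 and 24.4 CPM in shaded leaves. In each treated group at least 1 library was near the control level and another stood at more than 40 CPM, so the groups overlapped. The log2 fold changes, 0.52 ± 0.35 after defoliation (SE, edgeR adjusted p = 0.279) and 0.51 ± 0.35 under shading (SE, edgeR adjusted p = 0.294), did not pass. Without shading replicate 2 the value under shading was 0.01. Defoliation replicate 3 and shading replicate 2 held the highest levels of both GIGANTEA genes in their groups. RSEM divides reads that match several genes by estimation, so the split of reads between any near-identical parts of the 2 GIGANTEA or the 2 PRR genes is uncertain. The gene most like GIGANTEA (04g) outside the lists, Solyc11g071460.2, followed it less closely (Pearson's r 0.91 over 9 libraries), at 8.53, 8.64 and 6.69 CPM in control, 9.55, 13 and 17.8 CPM in defoliated and 8.18, 15.4 and 11.6 CPM in shaded leaves.

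**Figure D2:**
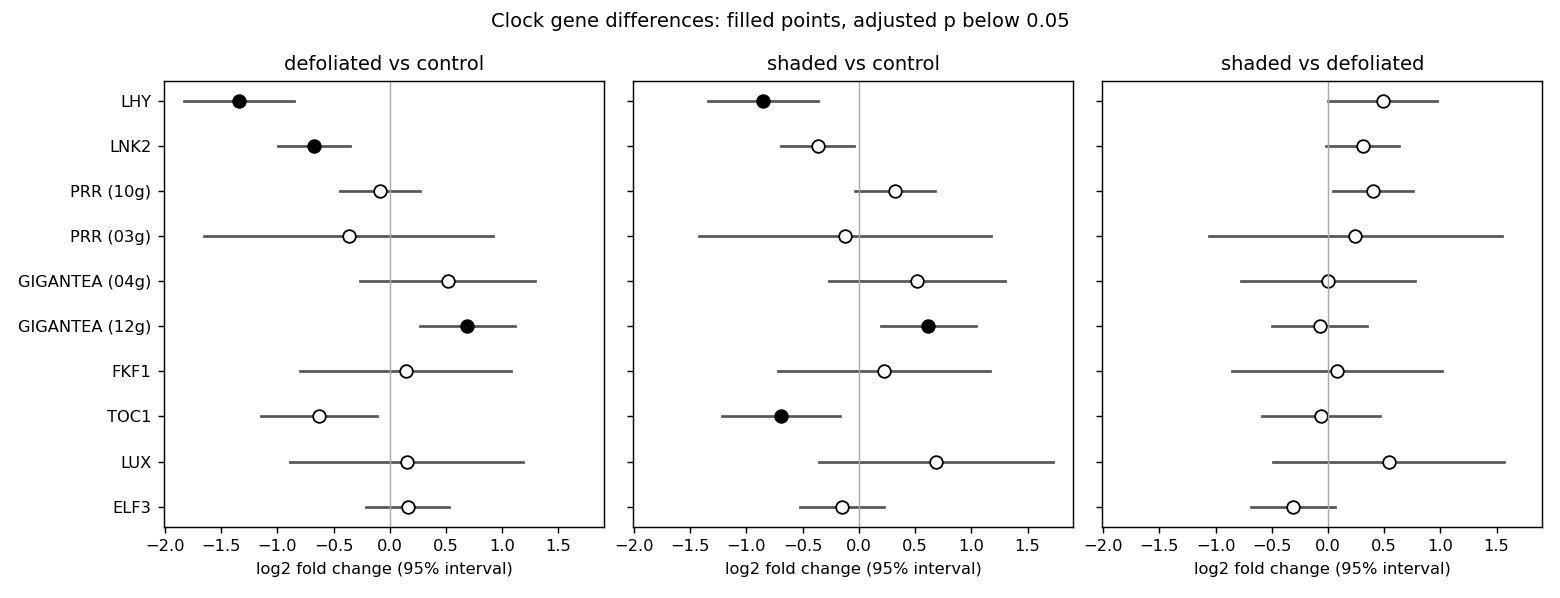
Log2 fold change of each clock gene (points) with its unadjusted 95% interval (lines) in the 3 comparisons, with filled points where the edgeR adjusted p was below 0.05. LHY and GIGANTEA (12g) are filled in both comparisons with control, LNK2 and TOC1 in 1 each, and no point is filled between the treatments.

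FKF1 is a blue-light receptor and F-box protein that acts together with GIGANTEA in Arabidopsis. Its levels were 3.53, 4.65 and 3.1 CPM in control, 3.14, 4.72 and 4.55 CPM in defoliated and 2.07, 7.72 and 3.23 CPM in shaded leaves. The shaded group held both the lowest and the highest library of all 9. Log2 fold changes were 0.14 ± 0.42 after defoliation (SE, edgeR adjusted p = 0.823) and 0.22 ± 0.42 under shading (SE, edgeR adjusted p = 0.725). Without shading replicate 2, the library that was also highest for both GIGANTEA genes in its group, the value under shading was -0.51 and did not pass.

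TOC1, a pseudo-response regulator that represses LHY in the evening, did not share the direction of GIGANTEA. It was at 5.25, 4.38 and 5.55 CPM in control leaves, 2.84, 3.23 and 3.72 CPM in defoliated leaves and 3.87, 3.17 and 2.26 CPM in shaded leaves. All treated libraries lay below all control libraries, on 35 to 161 counts per library. Under shading the mean was 1.63-fold lower, or -0.69 ± 0.24 on the log2 scale (SE, edgeR adjusted p = 0.0481). After defoliation it was -0.63 ± 0.23 (SE, edgeR adjusted p = 0.0596), just above the threshold, and this comparison passed with DESeq2 (-0.63) and limma-voom (-0.63), among 6 of 19 alternatives. The call under shading was lost in 12 of 19 alternatives. These were the removal of any 1 library other than shading replicate 1 (log2 fold changes from -0.76 to -0.52, edgeR adjusted p from 0.0514 to 0.13), no filter on low counts (-0.69), only the compared groups in the fit (-0.69), the replicate block (-0.70) and thinning (-0.58).

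The evening complex genes did not pass in either comparison with control. LUX, its DNA-binding subunit, had only 9 to 27 counts per library, at 0.58, 0.88 and 0.31 CPM in control, 0.63, 0.59 and 0.73 CPM in defoliated and 0.59, 0.95 and 1.36 CPM in shaded leaves. Its log2 fold changes were 0.15 ± 0.47 after defoliation (SE, edgeR adjusted p = 0.829) and 0.69 ± 0.47 under shading (SE, edgeR adjusted p = 0.294). Neither passed, and their 95% intervals ran from -0.89 to 1.19 and from -0.35 to 1.73. ELF3, the scaffold of the complex, stood at 7.12, 7.61 and 6.69 CPM in control, 7.88, 8.47 and 7.54 CPM in defoliated and 5.71, 7.83 and 5.68 CPM in shaded leaves. The groups overlapped. Its log2 fold changes were 0.16 ± 0.17 (SE, edgeR adjusted p = 0.5) and -0.15 ± 0.17 (SE, edgeR adjusted p = 0.534).

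The difference between LHY and another gene within each library was taken on log2 CPM. Library scaling cancels from it except through the prior count of 2 added before the logarithm. That addition weighs most on genes with few counts, such as LUX. LHY minus GIGANTEA (12g) lay between 2.82 and 3.07 in control leaves, between 0.23 and 1.32 in defoliated leaves and between 0.88 and 1.83 in shaded leaves. The treated libraries thus stood apart from all controls. For GIGANTEA (04g) the same difference was 4.58 to 4.95 in control, 2.03 to 3.63 in defoliated and 2.44 to 4.14 in shaded leaves, also without overlap with control. Against TOC1 it was 6.74 to 6.99 in control and 5.49 to 6.51 in defoliated leaves, while the shaded range of 6.09 to 7.53 enclosed the control range. Against FKF1 the shaded libraries (5.10 to 7.03) overlapped control (6.90 to 7.60) and the defoliated ones (5.21 to 6.37) did not. The separation from control was not particular to evening genes. LHY minus LNK2 was 2.18 to 2.28 in control, 1.42 to 1.69 in defoliated and 1.49 to 2.02 in shaded leaves. Against PRR (10g) it was 2.30 to 2.54, 0.62 to 1.43 and 0.92 to 1.36, also without overlap with control. Against PRR (03g) the shaded range (6.17 to 8.95) enclosed the control range (7.47 to 7.89). LHY takes part in each of these differences, so they repeat its own fall. They are descriptions with no test.

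**Figure D3:**
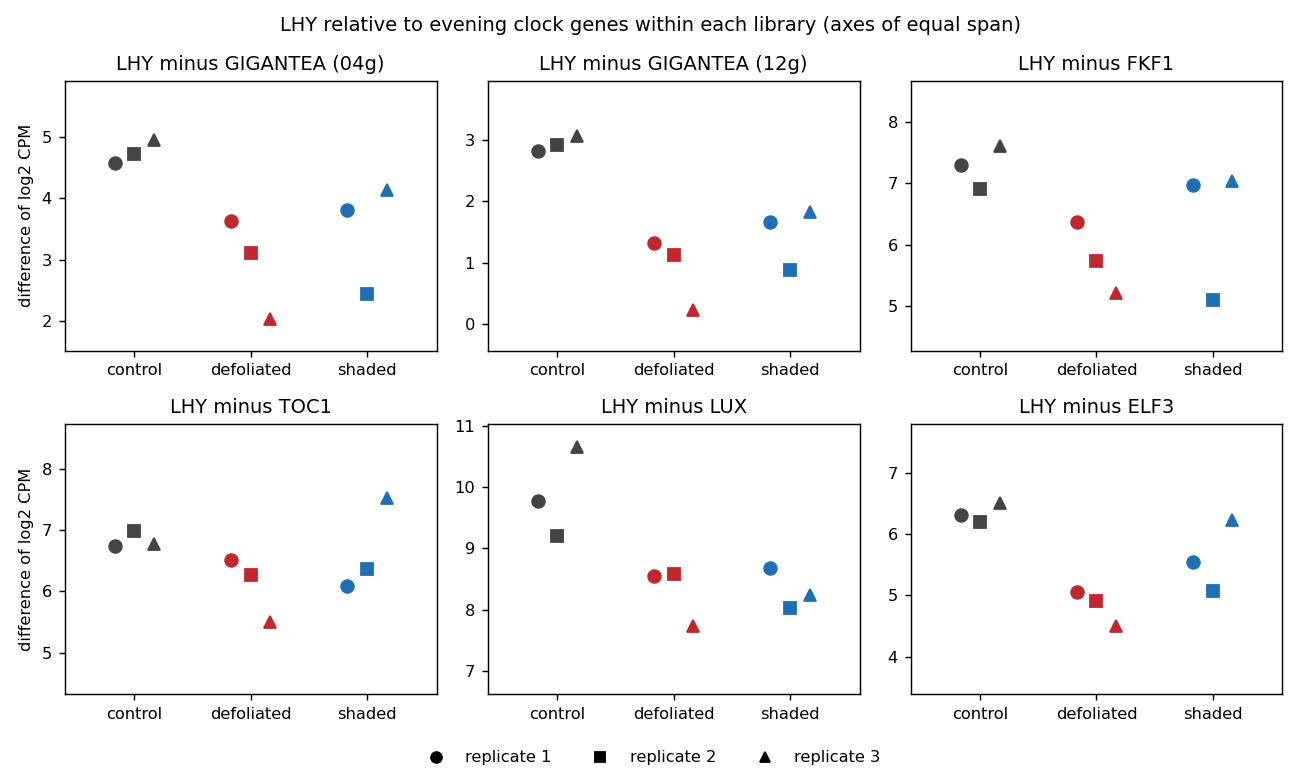
LHY minus each of 6 evening clock genes within each library (difference of log2 CPM, axes of equal span but different origin), with replicates as symbols. Control libraries lie above all treated libraries for both GIGANTEA genes and LUX, and shaded and control libraries overlap for FKF1, TOC1 and ELF3.

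Shaded replicates spanned a wider range than control replicates for all clock genes but LUX, and defoliated replicates for all but LUX, PRR (10g) and ELF3, as a description with no test. LHY spanned 0.13 on the log2 scale among the control libraries, 0.63 among the defoliated and 0.70 among the shaded ones. GIGANTEA (04g) spanned 0.25, 0.97 and 1.36, and PRR (03g) 0.30, 0.87 and 2.84. LUX, the gene with the fewest counts, was an exception with 1.32, 0.28 and 1.11. The median range of the 10 genes was 0.27 in control, 0.45 in defoliated and 0.76 in shaded leaves, beside 0.38, 0.41 and 0.45 over all genes tested. The shaded group held the largest range for 8 of the 10 genes, beside 40.8% of all genes. The genes share these libraries, so the 8 are not independent, and the shaded group holds the shallowest library. The background of all genes was not matched for level.

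Spread within groups also differed between the clock genes. The pooled within-group SD of log2 CPM was 0.50 for GIGANTEA (04g), above that of 95.8% of the 1000 genes nearest to it in mean level. For PRR (03g) it was 0.98 (95.6%), for FKF1 0.60 (87.9%) and for LHY 0.31 (82.6%). ELF3 (0.17, 18.1%) and TOC1 (0.27, 34.6%) varied less than most genes of their level. The genes share libraries, so these ranks are not independent. In defoliation replicate 3 LHY, LNK2 and ELF3 were lowest among the 3 defoliated libraries. Both GIGANTEA genes, PRR (10g), TOC1 and LUX were highest in it, while PRR (03g) and FKF1 were highest in defoliation replicate 2. In the shaded group the genes did not order the libraries alike, as LHY, LNK2 and PRR (10g) were highest in replicate 3 and both GIGANTEA genes, FKF1 and ELF3 in replicate 2. Whether leaves within a group were collected at different hours was not tested, since no time is given.

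**Figure D4:**
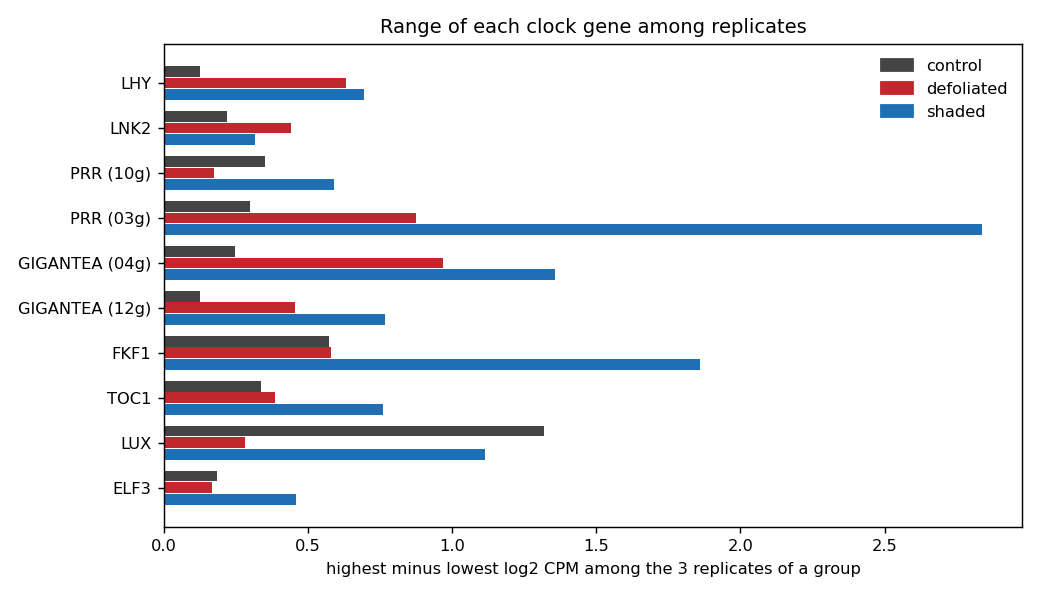
Highest minus lowest log2 CPM among the 3 replicates of each group, for each clock gene (bars from 0). The shaded group has the longest bar for 8 of 10 genes, with 2.84 for PRR (03g) and 1.86 for FKF1, and the control group the longest for LUX alone.

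In the direct comparison of shaded with defoliated leaves 0 of the 10 genes passed with edgeR, DESeq2 or limma-voom, and 0.0146% of all genes passed with edgeR. An unadjusted edgeR p below 0.05 was seen for 2 of the 10, beside 16.6% of all genes. These were LHY, higher under shading (log2 fold change 0.49, 95% interval 0.00 to 0.97, edgeR adjusted p = 0.3), and PRR (10g) (0.40, 0.05 to 0.76, edgeR adjusted p = 0.252). All 3 shaded libraries lay above the 3 defoliated ones for LHY, a separation seen for 1 of the 10 genes and for 21.8% of all genes, though only by 267 against 265 CPM at the nearest. GIGANTEA (12g) differed by -0.07 (95% interval -0.49 to 0.35, edgeR adjusted p = 0.877) and TOC1 by -0.06 (-0.59 to 0.46, edgeR adjusted p = 0.917). The wide interval of PRR (03g) (-1.06 to 1.55) leaves room for a 2-fold difference either way. Those of FKF1 (-0.86 to 1.02) and LUX (-0.49 to 1.57) leave room for a 2-fold higher level under shading. LNK2 is called after defoliation and not under shading, but the difference between the treatments (0.31, 95% interval -0.01 to 0.63, edgeR adjusted p = 0.321) did not pass. No hour of collection is given for either treated group, so its part in the differences between the treatments was not tested.

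A second list, written down from recollection of published tomato gene models, held 12 identifiers meant to cover other clock and photoperiod genes, namely EID1, a further TOC1-like gene, ZEITLUPE, CONSTANS and its relatives, cycling DOF factors and the FT-like gene SP5G. The files and the reference table do not pair these identifiers with names, so no name is attached to a single one, and that the list holds such genes was not checked. All 12 were tested, and 8 were lower and 0 higher after defoliation, where 15.4% of all genes were lower. Under shading 5 were lower and 0 higher, against 14.2% of all genes. The list was chosen with earlier results of these data known, so these counts are a description and no independent support. The median log2 fold changes of the list were -0.71 and -0.37, beside -0.02 for all genes in each comparison. After defoliation the count was 5 without control replicate 2 or defoliation replicate 1, and under shading it was 3 without shading replicate 1.

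The largest change in that list was that of Solyc05g007880.3. It stood at 107, 109 and 129 CPM in control, 33.9, 32 and 24.9 CPM in defoliated and 32.1, 22.6 and 32.1 CPM in shaded leaves, with the treated groups far below control. Its log2 fold changes were -1.93 ± 0.17 after defoliation (SE, edgeR adjusted p = 0.000318) and -1.99 ± 0.18 under shading (SE, edgeR adjusted p = 0.000265). Solyc05g053850.3 fell after defoliation, at 103, 128 and 110 CPM in control, 45.7, 53.5 and 73.3 CPM in defoliated and 87.9, 108 and 108 CPM in shaded leaves. The log2 fold change after defoliation was -0.98 ± 0.18 (SE, edgeR adjusted p = 0.0027), and that under shading was -0.16 ± 0.18 (SE, edgeR adjusted p = 0.534). The difference between the treatments was 0.82 ± 0.18 (SE, edgeR adjusted p = 0.118), which DESeq2 alone among the alternatives called (0.84, adjusted p = 0.0026).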

How the data were processed

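Leaf messenger RNA of 9 libraries (3 groups of 3) was analysed from the expected counts per gene that the authors deposited, whole numbers in the table. Trim Galore, STAR, RSEM and DESeq2 were used, per the submitters' processing notes. No source used here gives their versions, the genome build or the annotation. No row lacked a gene identifier.

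CPM were computed with TMM library sizes, and log2 CPM with a prior count of 2. Genes passing filterByExpr (20480, 88.3% of genes and 99.96% of counts) were tested by quasi-likelihood in edgeR 4.0.16 under R 4.3.3 (robust, default method, all 9 libraries, a coefficient per group), with Benjamini-Hochberg adjustment over all of them and a threshold of 0.05. The common biological coefficient of variation was 0.23. The script was tested on simulated data with far fewer changed genes than passed here against control. No result rests on that test. The SE is the log2 fold change divided by the square root of F. A p-value sets the difference between groups against the spread between libraries within groups, which the fit estimates with information shared across genes. Intervals are unadjusted.

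Alternatives were DESeq2 1.42.0, limma-voom (limma 3.58.1), the newer quasi-likelihood method of edgeR, RLE and upper-quartile scaling, other filters, a block for the replicate number, fits of 2 groups only, thinning to the smallest total, and leaving out each library.

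The clock genes, the second list and the tests were chosen with earlier results of these data known. All 10 clock genes are named. Of the second list 2 identifiers are printed, chosen after their values were seen. The gene most like LHY and that most like GIGANTEA (04g) have the highest Pearson's r among genes of at least 10 CPM on average. No sequences were used here.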

Additional observations from a re-analysis of the deposited data

How the results depend on the processing

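Of 681 recomputed log2 fold changes of the 10 clock genes and the 2 printed identifiers of the second list, 623 kept their direction and their side of the threshold, 24 lost a call, 8 gained a call and 26 changed sign without being called in either setting. No called value changed sign. The number of clock genes passing under shading was 1 with the replicate number as a block and 1 with all libraries thinned to the smallest total. Leaving out single libraries gave 2 to 4 clock genes after defoliation and 0 to 3 under shading, and 5 to 8 and 3 to 5 genes of the second list. Between the treatments DESeq2 called 2 genes of the second list and 1014 of all genes (main test 0 and 3), the replicate block called 0 of all genes, and leaving out single libraries gave 0 to 5. The cause of these differences was not tested. Thinning leaves fewer counts and leaving out libraries fewer samples, and the part of this was not tested either. The replicate numbers share no stated day or tray, and same-numbered libraries of different groups correlated between -0.20 and 0.19 in their deviations from group means, so the block is not read as a pairing. With at least 1 CPM required in 3 libraries LUX was not tested. LUX, with 9 to 27 counts per library, was measured at the lowest depth of the 10 genes.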
